A study of Mus musculus with 6 samples.

Results

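Actb, the transcript of cytoplasmic beta-actin, and Apoe, the transcript of apolipoprotein E, were measured in RNA of plasma extracellular vesicles (EVs) from non-cancer mice and from mice with lung cancer. They are 2 of the 14242 probes on a mouse small RNA array and belong to the 50 probes with mRNA identifiers. Their spots were found by probe identifier, A_51_P173760 for Actb and A_51_P171999 for Apoe. Each probe was printed on 10 spots of every array, so that they occupied 20 of the 14692 non-control spots. Matching the accession of each mRNA probe to RefSeq gave 1 gene symbol for 46 of the 50, both of these included.

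Non-cancer-EVs (n = 3) came from control mice and cancer-EVs (n = 3) from mice bearing tumors of LLC cells, the Lewis lung carcinoma line, which is a transplantable tumor of C57BL/6J mice. The methods name C57BL/6J mice of 6 to 8 weeks. The labels give no age, no dose or time of tumor cell injection and no statement on whether plasma was pooled, so the spread between samples may include technical spread. The organism label and the methods give mice, whereas the deposited treatment text describes blood of volunteers, and the groups were taken from the disease label. Plasma was spun and filtered to remove cells and platelets before EVs were pelleted by ultracentrifugation, and 100 ng RNA of each sample was labeled at its 3′ ends with the dye Cy3 and hybridized to 1 array.

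Beta-actin forms the actin filaments of the cytoplasm in nearly every cell type, and its mRNA is a common reference transcript in RNA measurements. Apolipoprotein E is a secreted lipoprotein component that carries lipids to receptors of the low density lipoprotein family. Liver cells and macrophages are its main sources in the circulation, and lipoprotein particles partly share size and density with EVs. The array reads RNA and not protein. A 3′ end label does not separate a whole mRNA from a fragment of it, and actin genes and pseudogenes share sequence with Actb, whose part in the signal was not tested.

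All 6 arrays came from 1 scan, and between 89.7% and 98.3% of their non-control spots were well above background. Array brightness, as the median intensity over non-control spots, ranged from 24.7 in non-cancer-EVs 2 and 26.1 in cancer-EVs 1 to 42.9 in non-cancer-EVs 3 and 44.4 in cancer-EVs 2. By their position on the slide, non-cancer-EVs 1 and the 3 cancer-EVs arrays lay in row 1, while non-cancer-EVs 2 and 3 lay in row 2. No spot was saturated. The number of arrays limits the precision.

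Both transcripts gave signal in every sample. All 120 spots of the Actb and Apoe probes over the 6 arrays were well above background, and 1 of them, an Apoe spot in cancer-EVs 1, carried an outlier mark and was left out. The Actb intensity, as the mean of the spots before any normalization between arrays, was 664, 1167 and 1486 in non-cancer-EVs 1, 2 and 3. It was 1926, 1793 and 635 in cancer-EVs 1, 2 and 3. The highest and the lowest Actb values therefore both belonged to cancer-EVs, and the 2 groups overlapped. The 77 negative control spots of each array had a median intensity of 1.02 to 1.26 and reached at most 5.996, too near the floor for a ratio.

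The Apoe intensity was 296, 227 and 459 in non-cancer-EVs 1, 2 and 3, and 213, 439 and 348 in cancer-EVs 1, 2 and 3. Low, middle and high values of Apoe occurred in both groups. Probes differ in how strongly they bind and label, so brightness does not rank Actb against Apoe or against other RNAs. Signal above background was also common among the mRNA probes, since 41 of the 50 were well above background on all 6 arrays.

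The spots of a probe repeated closely on each array. The coefficient of variation of the Actb intensity among the spots of an array was 1.48% to 2.68%, and that of Apoe was 1.34% to 2.89%. After quantile normalization between arrays, the SD among spots on the log2 scale had a median of 0.034 over the 6 arrays for Actb and of 0.036 for Apoe. Spots of 1 array share the same RNA and are not replicates of a group.

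On the normalized log2 scale, Actb was 9.68, 10.68 and 10.11 in non-cancer-EVs 1, 2 and 3. It was 11.27, 10.29 and 9.34 in cancer-EVs 1, 2 and 3, so cancer-EVs held the highest and the lowest value after normalization as well. Cancer-EVs had a mean of 10.30 ± 0.96 (SD, n = 3), against 10.16 ± 0.50 (SD, n = 3) for non-cancer-EVs. The log2 fold change, cancer-EVs minus non-cancer-EVs, was 0.14 (SE 0.46, 95% interval -0.92 to 1.21). As a ratio of cancer-EVs to non-cancer-EVs, that interval ran from 0.527 to 2.31. It did not pass the test (limma adjusted p = 0.927 over the 13801 probes tested). The exact permutation test of the 3 against 3 values, two-sided, gave p = 0.9, and 0.1 is the smallest p that this design allows.

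Apoe on the same scale was 8.53, 8.21 and 8.45 in non-cancer-EVs 1, 2 and 3 and 8.11, 8.34 and 8.47 in cancer-EVs 1, 2 and 3. The highest value belonged to non-cancer-EVs and the lowest to cancer-EVs, with the other values interleaved. The means were 8.31 ± 0.18 (SD, n = 3) for cancer-EVs and 8.40 ± 0.17 (SD, n = 3) for non-cancer-EVs. The log2 fold change was -0.090 (SE 0.17, 95% interval -0.47 to 0.29), a ratio of 0.939 with an interval of 0.721 to 1.22. Apoe did not pass the test either (limma adjusted p = 0.866, exact permutation p = 0.6).

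**Figure D1:**
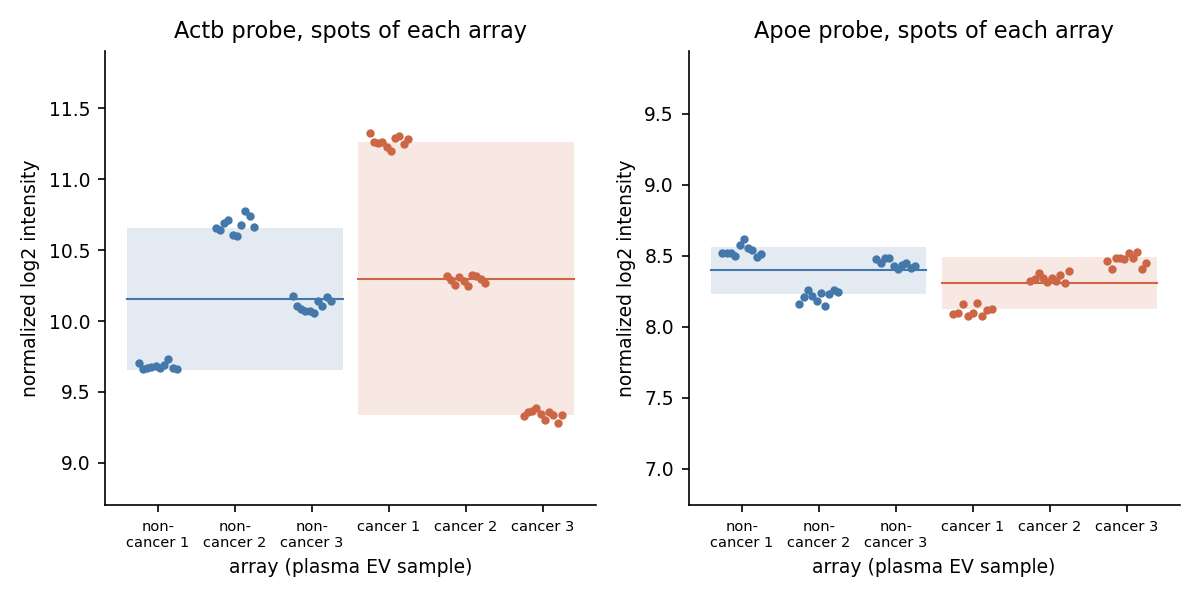
Normalized log2 intensity (y axis) of every spot used of the Actb probe (left) and the Apoe probe (right) on each of the 6 arrays (x axis), with non-cancer-EVs in blue and cancer-EVs in orange; each line is the mean of 3 arrays, each band 1 SD on either side, and both panels span the same log2 range. The spots of an array lie close together, whereas Actb array means run from 9.34 to 11.27 and Apoe array means from 8.11 to 8.53.

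The intervals of the 2 transcripts differed in what they leave possible. The cutoff of the methods was a fold change above 1.4, which is 0.49 on the log2 scale. The Apoe interval lay inside this size in both directions, although in only 10 of 20 alternative settings. The Actb interval reached past 1.4-fold in both directions, so a change of that size either way could not be told from no change with these arrays. With an unadjusted p below 0.05 from limma and a fold change above 1.4, 656 of the 13801 probes tested passed both cutoffs, which is 4.75%. By direction, 3.04% were higher and 1.71% lower in cancer-EVs, and Actb and Apoe were not among them. The split by direction depended on the scaling. Of the probes that passed, 64.0% were higher as reported, 26.3% with arrays centred on the other mRNA probes and 93.5% with no normalization. The description of the array work names no test. With the methods' t-test, which their general statistics name, in place of limma 273 probes passed, again without Actb and Apoe. No probe had an adjusted p below 0.05 in limma, and 952 had an unadjusted p below 0.05. The 2 groups did not overlap for 13.2% of the probes tested, and overlapped for both Actb and Apoe.

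The rows of the slide could be separated from the groups only in part, since row 2 held non-cancer-EVs alone. With the row as a block the fit also rests on the 3 cancer-EVs arrays against non-cancer-EVs 1 alone, and the log2 fold change was 0.62 for Actb (SE 0.66) and -0.23 for Apoe (SE 0.22). Within row 1, the same comparison, it was 0.63 for Actb and -0.23 for Apoe. These fits are not separate checks, the lone array is assumed to vary like the others, and neither transcript passed the cutoffs in them. Leaving out single arrays also moved Actb, whose log2 fold change was -0.34 when cancer-EVs 1 was left out, -0.094 when non-cancer-EVs 1 was, and 0.62 when cancer-EVs 3 was. For Apoe, leaving out 1 array at a time gave -0.18 to 0.0073.

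The 2 transcripts also differed in their spread between arrays. Over the 6 arrays, whatever the group, the SD of normalized log2 intensity was 0.69 for Actb and 0.16 for Apoe. From the lowest to the highest array, Actb spanned 1.93 and Apoe 0.42 on the log2 scale. The contrast depended on the scaling. The highest value was 3.80 times the lowest for Actb and 1.34 times for Apoe here, against 3.03 and 2.15 before normalization. The SE of the log2 fold change was 0.46 for Actb and 0.17 for Apoe as reported. With arrays centred on the other mRNA probes it was 0.37 and 0.29, and with cyclic loess 0.54 and 0.12. For Actb the SD between arrays was 20.5 times the median SD among spots, and for Apoe it was 4.47 times that SD. Among the 47 mRNA probes tested, 39 had a smaller SD than Actb and 7 a larger one, while 7 had a smaller SD than Apoe and 39 a larger one. Among all 13801 probes tested, the SD of Actb was at percentile 95.1 and that of Apoe at percentile 21.9. The median SD of the 47 mRNA probes was 0.37, and 23 of them had a highest value at least 2 times the lowest.

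The 2 probes also stood differently to the brightness of their arrays. Before normalization, the highest value was 3.03 times the lowest for Actb and 2.15 times the lowest for Apoe. A probe that scales with its array has r above 0 with array brightness: over 13779 probes the median r was 0.861, and over the 47 mRNA probes 0.817. For Apoe, Pearson r between Apoe and the median of all non-control spots, both as log2 values that were not normalized, was 0.974 (exact permutation p = 0.0111) and Spearman rho was 0.886 (exact permutation p = 0.0333) over the 6 arrays. Without the 2 arrays farthest from the median brightness, cancer-EVs 2 and non-cancer-EVs 3, r was 0.943. For Actb the same relation had r = 0.217 (exact permutation p = 0.639) and rho = 0.086 (exact permutation p = 0.919), with r = -0.751 without the same arrays. These p-values are against r of 0 and do not set a probe against the others. As a description, 3 of the 47 mRNA probes had a higher r than Apoe and 2 a lower r than Actb, whose r was above that of 2.18% of all probes.

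**Figure D2:**
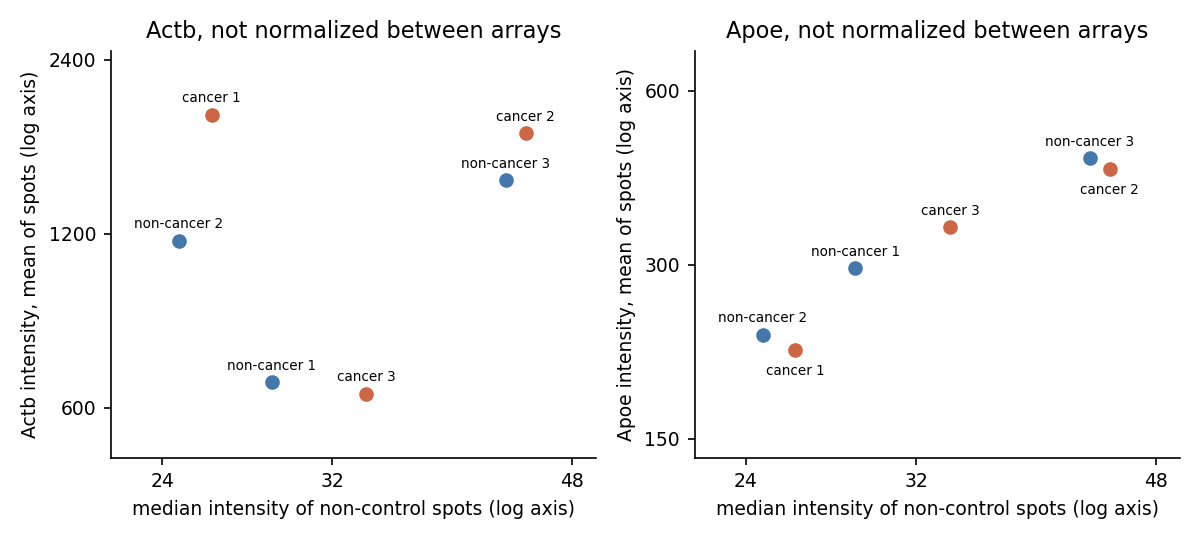
Mean spot intensity of Actb (left) and Apoe (right), not normalized between arrays, against the median intensity of all non-control spots of the same array; both axes are logarithmic, each point is 1 array, and blue marks non-cancer-EVs and orange cancer-EVs. Apoe rises with array brightness, whereas the Actb values of 1926 and 1793 stand on a dim and a bright array.

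After quantile normalization Actb and Apoe deviated from their own means in opposite directions on 6 of 6 arrays, and the Actb deviation was the larger in size on 6 of 6. The share of other probes that run against Actb in this way is not given here, so the pattern is not shown to be particular to this pair. The Actb deviations were -0.55, 0.45 and -0.12 in non-cancer-EVs 1, 2 and 3, and 1.04, 0.063 and -0.89 in cancer-EVs 1, 2 and 3. Those of Apoe were 0.18, -0.14 and 0.093 in non-cancer-EVs, and -0.24, -0.011 and 0.12 in cancer-EVs. The dimmest arrays of each group, non-cancer-EVs 2 and cancer-EVs 1, had the highest Actb and the lowest Apoe of their group.

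The same deviations, put as a correlation over the 6 arrays, gave a Pearson r between Actb and Apoe of -0.937 (exact permutation p = 0.00833) and a Spearman rho of -0.943 (exact permutation p = 0.0167). Without the arrays farthest from the Actb median, cancer-EVs 1 and cancer-EVs 3, r was -0.984. This relation and the relations with brightness form a family of 3, chosen after the values were seen, and neither the p-values nor their adjustment account for that choice. Adjusted over these 3 by Benjamini-Hochberg, the exact permutation p for r was 0.0167 for Actb with Apoe, 0.0167 for Apoe with brightness and 0.639 for Actb with brightness, and for rho it was 0.05, 0.05 and 0.919. The relation between Actb and Apoe depended on the scaling. It was -0.873 with 75th percentile scaling and -0.949 with normexp background correction, -0.609 with cyclic loess (exact permutation p = 0.204), -0.289 when arrays were centred on the other mRNA probes (exact permutation p = 0.536) and 0.015 with no normalization (exact permutation p = 0.979). With cyclic loess, r was 0.059 without cancer-EVs 1 and 3. Within the 4 arrays of slide row 1, r was -0.953 for Actb with Apoe, 0.952 for Apoe with brightness and 0.155 for Actb with brightness, given without a test, and the 2 arrays of row 2 were too few for r.

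**Figure D3:**
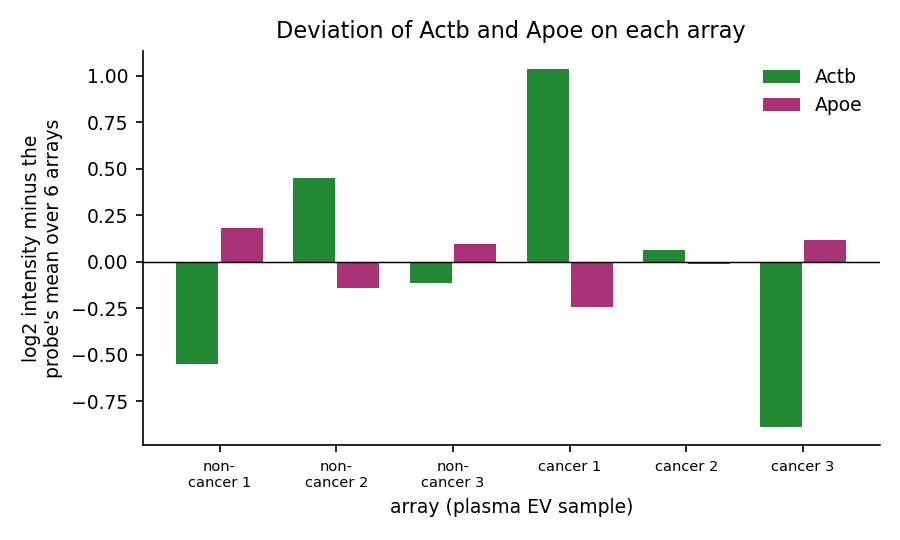
Normalized log2 intensity of Actb (green) and Apoe (purple) minus the mean of the same probe over the 6 arrays (y axis), for each array (x axis). The bars of the 2 probes point in opposite directions on 6 of 6 arrays, with the largest Actb bars at 1.04 in cancer-EVs 1 and -0.89 in cancer-EVs 3.

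The difference between the 2 probes on the same array cancels whatever scales a whole array. Its size depends on both probes, so only its change between arrays is read here. Actb minus Apoe on the normalized log2 scale was 1.15, 2.46 and 1.67 in non-cancer-EVs 1, 2 and 3, and 3.15, 1.95 and 0.87 in cancer-EVs 1, 2 and 3. The ratio of Actb to Apoe thus varied 4.87-fold over the 6 arrays, and 4.95-fold without normalization. Cancer-EVs again held both extremes. The mean difference was 1.99 ± 1.14 (SD, n = 3) for cancer-EVs, against 1.76 ± 0.66 (SD, n = 3) for non-cancer-EVs, and the change of 0.23 between the groups had an exact permutation p = 0.8. Without normalization the change was 0.28 (exact permutation p = 0.8).

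Of the other mRNA probes, those most like Actb were Gpi1, a glycolytic enzyme that interconverts glucose and fructose phosphates, and Chgb, a protein of secretory granules. Likeness was the root mean square distance between log2 values over the 6 arrays, each probe centred on its own mean, among 37 other mRNA probes with 1 symbol that were well above background on all 6 arrays. The distance from Actb was 0.302 for Gpi1 and 0.328 for Chgb. Normalized log2 intensity of Gpi1 was 7.35, 8.40 and 7.94 in non-cancer-EVs 1, 2 and 3, and 9.61, 8.72 and 7.14 in cancer-EVs 1, 2 and 3. Like Actb, Gpi1 had its highest value in cancer-EVs 1 and its lowest in cancer-EVs 3. Chgb was 6.82, 8.47 and 7.66 in non-cancer-EVs and 8.61, 8.29 and 7.37 in cancer-EVs, with its lowest value in non-cancer-EVs 1.

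The probes most like Apoe were Olfr166, an olfactory receptor, at a distance of 0.089, and Alkbh4, an enzyme of the AlkB demethylase family, at 0.121. Olfr166 was 10.00, 9.93 and 9.95 in non-cancer-EVs 1, 2 and 3, and 9.73, 9.88 and 9.95 in cancer-EVs 1, 2 and 3. Alkbh4 was 6.05, 6.10 and 6.08 in non-cancer-EVs, and 5.84, 6.13 and 6.28 in cancer-EVs. Both probes varied little, as Apoe did, which follows from their choice by a small distance. Both had their lowest value in cancer-EVs 1. Pearson r with Apoe was 0.844 for Olfr166 and 0.631 for Alkbh4, whose order within non-cancer-EVs was the reverse of that of Apoe. The distance between Actb and Apoe was 0.771, which placed Apoe at rank 32 of 37 for Actb and Actb at rank 33 of 37 for Apoe.

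Among the 47 mRNA probes tested, 4 passed both methods' cutoffs in limma. Mzb1, an endoplasmic reticulum protein of antibody-secreting cells, was higher in cancer-EVs by 0.70 on the log2 scale (SE 0.20, adjusted p = 0.566). Lhfp was higher by 0.69 but was well above background on only 3 of the 6 arrays, and Pex11a, which acts in peroxisome division, was higher by 0.58. Dnajc11, a mitochondrial inner membrane organization protein, fell by 0.56 (SE 0.18, adjusted p = 0.683). Of 20 alternative settings, Mzb1 passed the cutoffs in 18, Dnajc11 in 14 and Pex11a in 13. Lhfp passed in 12 of the 15 in which it was tested. The 20 include the row fits, in which non-cancer-EVs 1 is the lone control. Apart from those row fits, the Dnajc11 call was lost with normexp, with no normalization and without cancer-EVs 2 or 3. That of Pex11a was lost with centring on the other mRNA probes, the methods' t-test and no normalization. It was also lost without non-cancer-EVs 1, non-cancer-EVs 2 or cancer-EVs 2. Lhfp was lost with centring, normexp and no normalization, and Mzb1 with centring and no normalization. The median log2 fold change was 0.20 over the mRNA probes and -0.069 over all 13801 probes tested. Read against the other mRNA probes, the log2 fold change of Actb was near their median and that of Apoe below it.

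**Figure D4:**
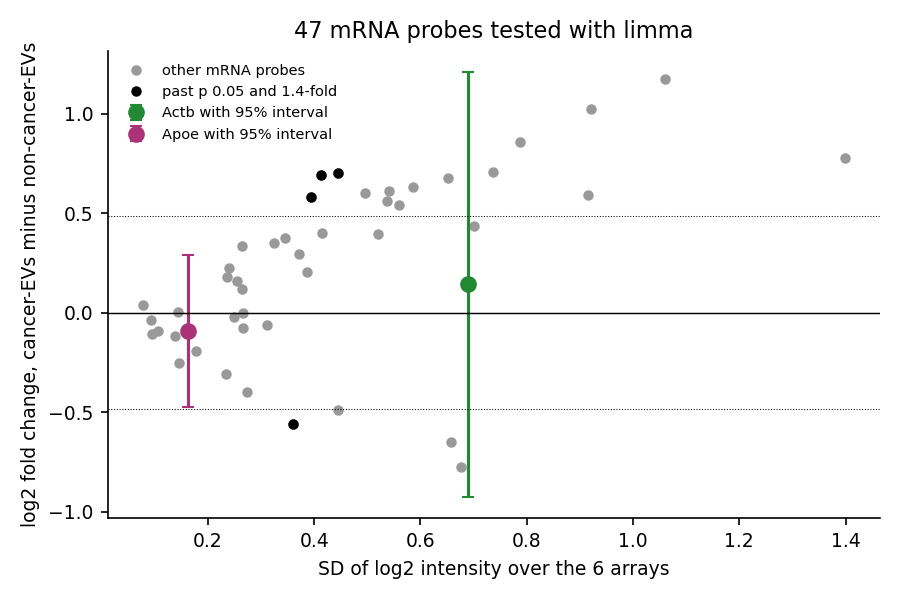
Log2 fold change, cancer-EVs minus non-cancer-EVs (y axis), against the SD of normalized log2 intensity over the 6 arrays (x axis) for the 47 mRNA probes tested; Actb (green) and Apoe (purple) carry their 95% limma intervals, black points passed both methods' cutoffs, and dotted lines mark 1.4-fold. Actb lies at an SD of 0.69 with an interval past both dotted lines, and Apoe at an SD of 0.16 with an interval between them.

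Few genes related to Actb or Apoe could be read beside them. Of 23 genes of the actin cytoskeleton and 16 common reference genes, Actb alone had a probe tested, and of 21 genes of lipoprotein and cholesterol transport, Apoe alone. These lists do not hold every related gene, and 4 of the 50 mRNA probes had no single gene symbol here. Of 12 genes of lipid metabolism 3 had one, and 0 passed the methods' cutoffs, with a median log2 fold change of 0.60. The values were 0.60 for Acaa2, a mitochondrial thiolase of fatty acid oxidation, 0.61 for Gsta4, which detoxifies lipid peroxidation products, and -0.12 for Cpt1a, which brings fatty acids into mitochondria.

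Cells that could contribute RNA to a plasma pellet were barely covered by probes. Of 9 red cell genes Prdx2 alone was tested, an antioxidant enzyme abundant in red cells, with a log2 fold change of -0.77 (limma adjusted p = 0.689). Its normalized log2 intensity was 8.57, 9.54 and 9.83 in non-cancer-EVs 1, 2 and 3 and 9.11, 8.35 and 8.15 in cancer-EVs 1, 2 and 3, and the groups overlapped. Of 6 leukocyte genes Il2 alone was tested, with a log2 fold change of -0.022, and 0 of 5 platelet, 0 of 6 hepatocyte and 0 of 3 macrophage genes had a probe tested. Mzb1, which is on none of these lists and is named here after its values were seen, is also a gene of leukocytes and was higher in cancer-EVs by the 0.70 given above. The part of such cells in the Actb and Apoe signals was not tested.

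Across 20 alternative settings of normalization, background correction, filter, test, block and left-out array, Actb and Apoe passed the methods' cutoffs in 0. The Actb log2 fold change ranged from -0.34 to 0.63 and that of Apoe from -0.32 to 0.028. The Apoe interval stayed inside 1.4-fold in 10 of the 20 settings, and the Actb interval in 0 of 20.

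**Figure D5:**
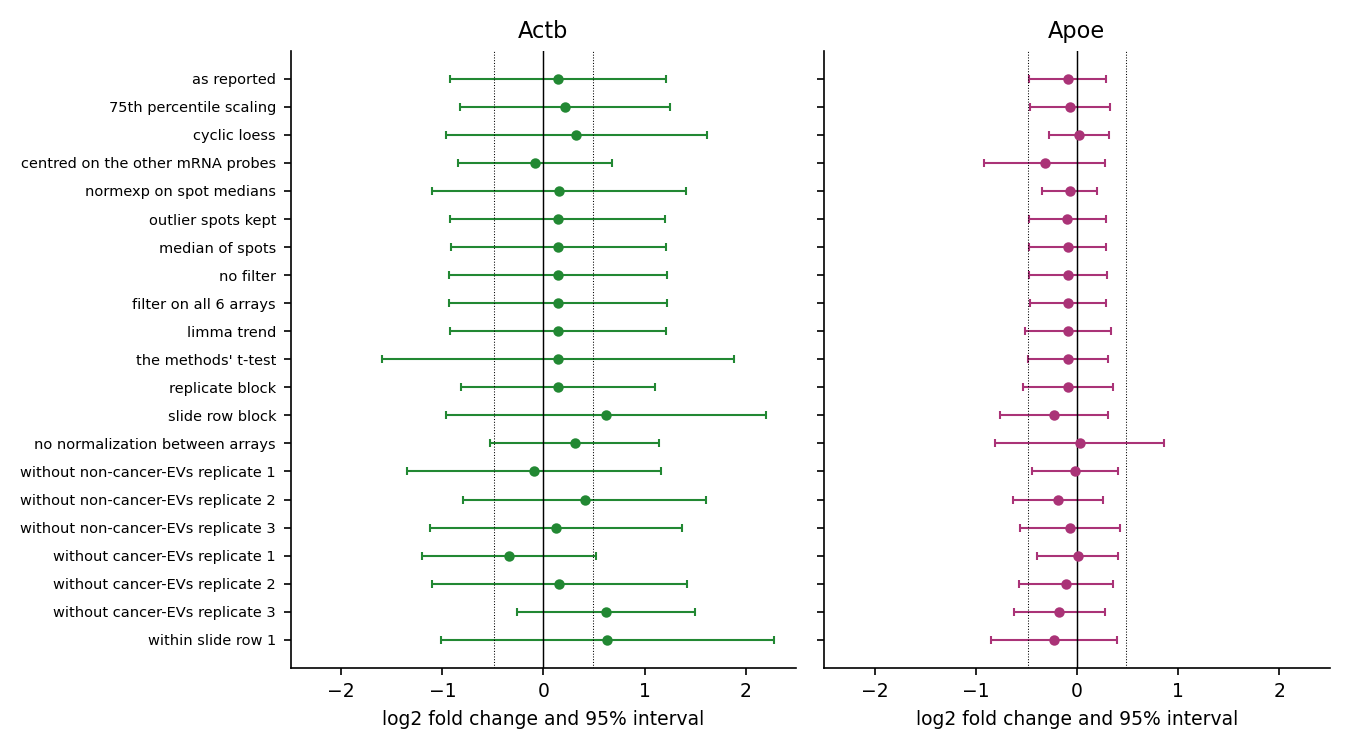
Log2 fold change, cancer-EVs minus non-cancer-EVs, with 95% intervals (x axis) for Actb (left, green) and Apoe (right, purple) as reported (top) and under each of 20 alternative settings (y axis); dotted lines mark 1.4-fold. Every interval includes 0, the Actb values run from -0.34 to 0.63, and the Apoe values from -0.32 to 0.028.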

How the data were processed

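Scans were extracted by the authors with Agilent Feature Extraction 11.0.1.1, and the intensity they deposited for a spot is linear, background-subtracted and not normalized between arrays. The headers name the grid build as mm9, the RefSeq table used for symbols is of another build, and no coordinates are given. The authors also deposited quantile normalized log2 values for 14192 probes, which hold 0 of the mRNA probes. Control spots and outlier spots were left out here. Intensities were quantile normalized as in the study's methods, floored at 1 and converted to log2, and the spots of a probe were averaged. A probe was tested if well above background on 3 or more of the 6 arrays (an mRNA probe, on at least 50% of its spots). The test was limma (version 3.58.1, R version 4.3.3; functions lmFit and eBayes), two-sided with no covariate, adjusted by Benjamini-Hochberg over all probes tested. Other probes named are the 2 most like each transcript, at most 3 mRNA probes past the cutoffs in each direction and the listed genes with a probe. Members and lists were chosen with earlier results of these data known. The scripts were tested on simulated data. Same-numbered samples of the 2 groups correlated at 0.090, 0.25 and -0.22, so the numbers do not pair the samples.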

Additional observations from a re-analysis of the deposited data

How the results depend on the processing

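Actb and Apoe passed the methods' cutoffs under no setting, and adjusted p in limma and the methods' t-test ranged from 0.559 to 1.00 for Actb and from 0.563 to 1.00 for Apoe. Direction was unsettled. Apoe turned to 0.023 with cyclic loess and to 0.028 with no normalization, and Actb to -0.087 when arrays were centred on the other mRNA probes; the causes were not tested. Leaving out 1 array gave -0.34 (without cancer-EVs 1) to 0.62 (without cancer-EVs 3) for Actb, with -0.094 without non-cancer-EVs 1, and -0.18 (without non-cancer-EVs 2) to 0.0073 (without cancer-EVs 1) for Apoe. With 1 array left out, the change of Actb minus Apoe ran from -0.35 (without cancer-EVs 1) to 0.79 (without cancer-EVs 3), with -0.072 without non-cancer-EVs 1. This change was 0.84 with the slide row block and 0.86 within row 1, both with non-cancer-EVs 1 as the lone control. With the replicate block, which cannot move a balanced log2 fold change (Actb 0.14, Apoe -0.090), the 95% interval of Apoe was -0.54 to 0.35 and reached past 1.4-fold, as that of Actb did. The spread between spots held its size in every setting tried.

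The mRNA probes past the cutoffs, 4 as reported, were 7 when centred on the other mRNA probes, 2 with normexp, 8 with the replicate block, 18 with the slide row block, 17 within row 1 (in both, for all probes too, non-cancer-EVs 1 is the lone control), and 2 (without cancer-EVs 2) to 11 (without cancer-EVs 3) with 1 array left out. Of all probes, 656 as reported with 64.0% higher, the count was 992 centred (26.3% higher), 214 with normexp (49.1%), 273 by the methods' t-test (49.1%; 0 after Benjamini-Hochberg), 2334 with the slide row block (52.3%), 1582 within row 1, and 388 (without cancer-EVs 2) to 1166 (without cancer-EVs 3) with 1 array left out. The share higher was 76.5% with cyclic loess, 74.3% with the replicate block and 93.5% with no normalization. An adjusted p below 0.05, reached by 0 probes as reported, was reached by 68 when centred, 1 with normexp, 6 with the replicate block and 96 with no normalization. Centring on the other mRNA probes moved the median log2 fold change of all probes from -0.069 to -0.30. The series value table holds no Actb or Apoe probe, so that alternative was not run for them. No normalization and the values within row 1 were added after seeing the data. With 3 arrays in each group, the Actb spread limits what can be detected.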
